A study of Rattus norvegicus with 18 samples.

Results

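Rat follicles that failed to rupture after RU486 (RU UF, 3 samples) were compared here with follicles of untreated rats that had ruptured by the same clock time (control PoF, 3 samples). The samples were chosen by their titles and make up 6 of the 18 arrays of the study, which profiled ovarian follicles of cycling Crl:CD(SD) rats on Affymetrix expression arrays. RU486 (mifepristone) blocks the progesterone receptor and, at higher doses, the glucocorticoid receptor. It was given once by mouth at 100 mg/kg at 10:00 on the day of proestrus, before the evening surge of luteinizing hormone (LH), and both groups were collected at 10:00 on the following day, estrus. In each phase 15 follicles were cut by laser from frozen ovary sections 8 micrometres thick, and RNA from these sections was hybridised. Further groups of 3 used below are unruptured follicles of rats that received 4 mg/kg indomethacin, a cyclooxygenase inhibitor, by mouth at 16:00 of proestrus and were collected at the same time as RU UF (IM UF), and follicles collected at 22:00 of proestrus from untreated rats (control PeF) and from rats given RU486 (RU PeF). The controls were labelled as not treated, so the drug, its administration and the failure to rupture cannot be told apart in RU UF against control PoF. The labels do not tie samples to animals, and p-values measure the spread between these samples.

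The LH surge induces the progesterone receptor in granulosa cells, and the receptor, a transcription factor, switches on genes needed for the follicle wall to open, among them proteases, endothelin 2 and regulators of blood vessels. In parallel the surge turns a follicle that makes estradiol into a corpus luteum that makes progesterone: aromatase falls, and cholesterol import into mitochondria by the StAR protein feeds the side chain cleavage enzyme. Rupture itself is followed by bleeding, clotting, invasion by vessels and a shift towards low oxygen, in which hypoxia-inducible factors act.

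The arrays of both groups correlated closely within the group (Pearson r over probe sets 0.975 to 0.976 in control PoF and 0.964 to 0.970 in RU UF). The median deposited signal was 24.2 to 27.4 on the control PoF arrays and 16.8 to 17.0 on the RU UF arrays, and the arrays were therefore brought to a common distribution. The Gapdh 3' probe set exceeded the 5' probe set, a sign of RNA length, by 2.07 to 2.31 (log2) in control PoF and by 2.86 to 3.27 in RU UF, without overlap, whereas the beta-actin difference was 5.05 ± 0.13 and 5.22 ± 0.43 (SD, n = 3). Granulosa markers were high in both groups, with summed log2 levels of 14.15 to 14.28 in control PoF and 14.23 to 14.41 in RU UF. Theca markers summed to 14.57 to 14.65 and 14.88 to 14.92. The other sums, control PoF before RU UF, were 11.57 to 11.88 and 11.34 to 11.47 for smooth muscle and pericytes, 10.39 to 10.46 and 9.60 to 10.12 for endothelium, 9.20 to 10.32 and 8.70 to 9.34 for leukocytes, 7.87 to 8.71 and 7.47 to 7.89 for erythrocytes, 8.47 to 8.92 and 7.83 to 8.36 for ovarian surface epithelium, and 4.50 to 4.91 and 5.22 to 5.69 for the oocyte. Theca and oocyte sums were thus higher in RU UF, and those of smooth muscle, endothelium and surface epithelium lower, without overlap of the samples. Of the 8 oocyte markers 6 were at background in control PoF and 5 in RU UF, so that sum is mostly background; of 9 theca markers tested 3 were higher and 2 lower, with a median of 0.05. Fewer cells of a type and less RNA per cell cannot be told apart in such samples. The part of these shifts in the results below was not tested.

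Of 18155 probe sets tested, 1578 passed an adjusted p of 0.05 in RU UF against control PoF (8.69%; limma, Benjamini-Hochberg over all probe sets), 767 higher and 811 lower in RU UF, and 750 of them differed at least 2-fold. Without scaling between arrays the median of all probe sets lay at -0.675, and 151 passed, 6.62% of them higher; with scaling to the array medians it lay at -0.102 and 793 passed, 36.1% higher, against 48.6% in the fit used here. Leaving out any of the 6 arrays lowered the count, to 897 without control PoF 1, 916 without control PoF 2, 970 without control PoF 3, 1034 without RU UF 1, 858 without RU UF 2 and 953 without RU UF 3. Counted once per gene, 470 of 10381 genes were higher (4.53%) and 566 lower (5.45%). All list counts for RU UF against control PoF below are to be read against these shares. In 38.4% of the genes the 3 samples of 1 group all lay beyond those of the other, so separation of the samples by itself was common. By contrast, IM UF against control PoF gave 5 genes (0.0482%; 778 at an unadjusted p under 0.05).

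**Figure D1:**
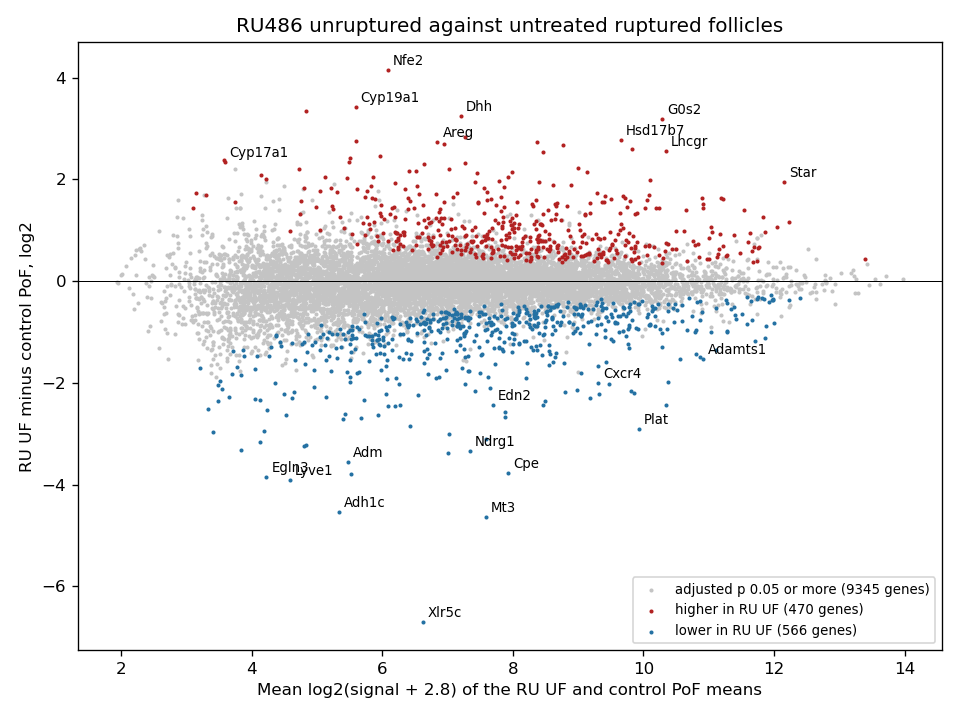
Each point is a gene, with the mean log2(signal + 2.8) of the RU UF and control PoF means on the horizontal axis and RU UF minus control PoF in log2 on the vertical axis. The 470 genes higher in RU UF are red, the 566 lower are blue and the rest grey, and Xlr5c at the bottom lies apart from all others at -6.71.

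Here and below, rise and fall mean a higher or lower level in RU UF than in control PoF, not a change over time. The genes of the largest rises and falls were chosen among called genes whose samples did not overlap between these groups. That their samples lay fully apart therefore follows from the choice and is no further evidence. The same holds below for Cyp19a1, Hsd17b7, Nr4a3, Areg, Egln3, Adm and Ndrg1, which are among them. The gene of the largest rise was Nfe2, a basic leucine zipper transcription factor best known from blood platelets. Its level, given here and below as log2 of the normalised signal plus 2.8, was 3.89, 4.21 and 3.92 in control PoF 1 to 3 and 8.41, 8.30 and 7.76 in RU UF 1 to 3. The groups lay far apart, and the difference was 4.15 ± 0.50 (log2 ± SE, 17.8-fold, adjusted p = 4.53e-05). Dhh, the hedgehog ligand that granulosa cells send to the theca, stood at 5.53, 5.55 and 5.65 against 9.06, 8.75 and 8.69. All RU UF samples were higher, by 3.25 ± 0.41 (adjusted p = 7e-05). G0s2, an inhibitor of triglyceride lipase, rose by 3.18 ± 0.45 (adjusted p = 0.000187) from levels of 8.56 to 8.85, and the semaphorin Sema3d rose by 3.35 ± 0.50 (adjusted p = 0.000311) where 2 of 3 control arrays were above background. Sult1b1, a sulfotransferase, rose by 2.83 ± 0.53 and Ttc39a by 2.74 ± 0.25. Bean1 rose by 2.70 ± 0.61, and this call was lost without RU UF 1 (2.16). Prss35, a serine protease of the theca, had 8.69 and 8.79 in control PoF 1 and 2 but 4.79 in control PoF 3. Its rise of 2.68 ± 0.81 (adjusted p = 0.0476) therefore rested on that sample: without control PoF 3 it was 1.37 and no longer passed, nor did it without RU UF 1 (2.96), RU UF 2 (2.64) or RU UF 3 (2.45).

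The largest fall was in Xlr5c, a member of an X-linked family related to synaptonemal complex proteins. Control PoF had 10.69, 10.23 and 9.01 and RU UF had 3.06, 4.01 and 2.73, where 1 of 3 arrays was above background. Ruptured follicles held a high level and the treated ones almost none, a difference of -6.71 ± 0.53 (adjusted p = 1.1e-06). Mt3, a metallothionein that binds zinc and copper, was at 9.72, 9.83 and 10.13 in control PoF and at 5.10, 5.57 and 5.13 in RU UF. It fell by 4.63 on the log2 scale (SE 0.61, 24.7-fold, adjusted p = 0.000103), with a gap between the groups much wider than either group. Cpe, a carboxypeptidase that trims peptide hormones, fell by 3.76 (SE 0.40, adjusted p = 1.68e-05), and Hopx, a homeodomain protein that binds no DNA, fell by 3.38 (SE 0.32, adjusted p = 5.02e-06). Adh1c, an alcohol dehydrogenase that can oxidise retinol, fell by 4.54 (SE 0.57), with 2 of 3 RU UF arrays above background. Tmem35a fell by 3.80 and Orm1, an acute phase glycoprotein, by 3.24, each with 1 of 3 RU UF arrays above background. Lyve1, the hyaluronan receptor of lymphatic vessels and some macrophages, was at 6.87, 6.68 and 6.07 in control PoF and not well above background in any RU UF sample, which makes it at least 9.37-fold lower (adjusted p = 5.22e-05). The bound sets the control mean against the lowest signal that is above background on each RU UF array. In the same way the proton pump subunit Atp4a was at least 4.53-fold lower (adjusted p = 6e-05).

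**Figure D2:**
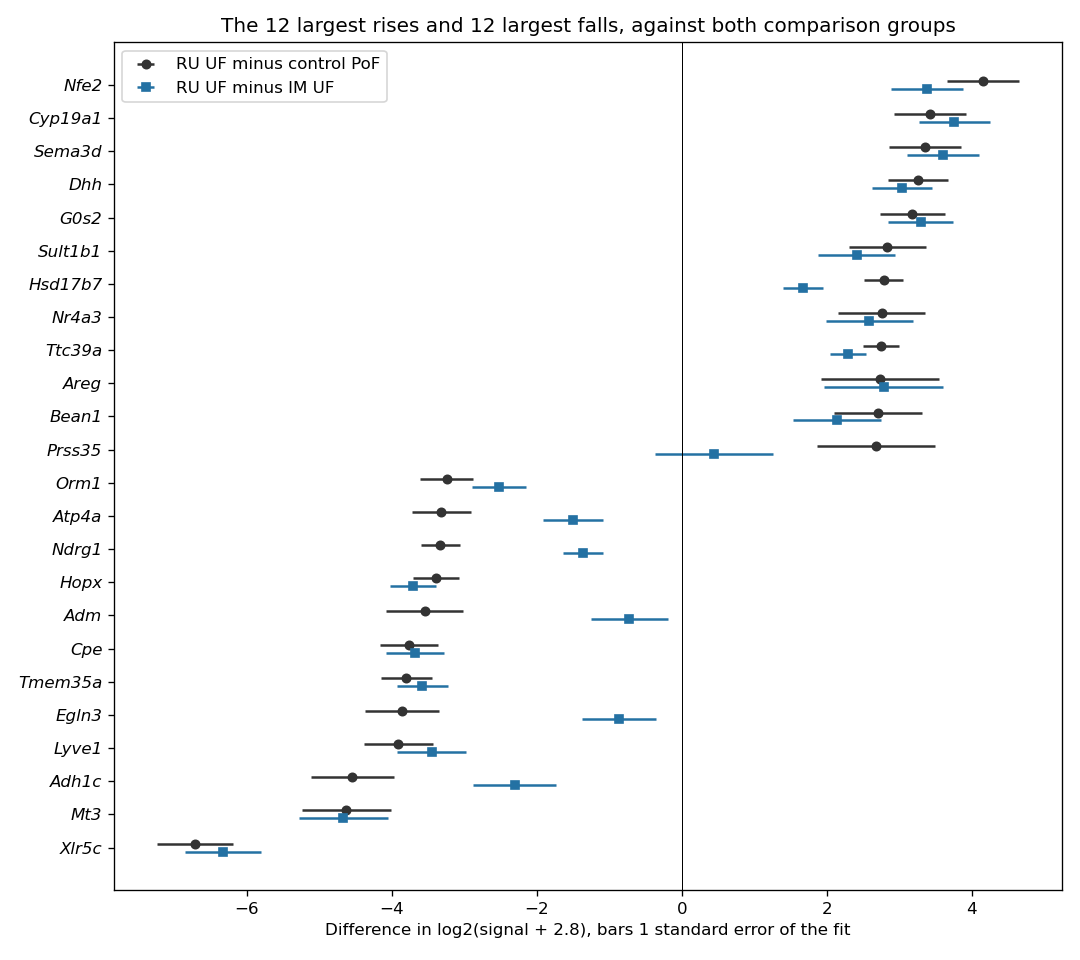
Difference in log2(signal + 2.8) for the 12 genes with the largest rises and the 12 with the largest falls in RU UF against control PoF (black circles), with the same genes in RU UF against IM UF (blue squares). Bars are 1 standard error of the fit. Adm, Egln3 and Prss35 lie near 0 against IM UF, at -0.72, -0.86 and 0.45, while most other genes keep a similar size. The values of Lyve1, Egln3 and Atp4a are fitted with RU UF at background and are not bounds. Egln3 was near or below background in IM UF too, so its value there does not compare the drugs.

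Genes of cholesterol synthesis rose together. Of 26 measured members of a list of cholesterol synthesis and uptake, 19 were higher and 0 lower in RU UF against control PoF (4.53% and 5.45% of all genes), with a list median of 1.34 against -0.04 over all genes. The direction held with scaling to the array medians, where 16 rose (median 1.21). With the signals as deposited the median was 0.61 and 0 of the 26 passed. The enzymes spanned the pathway from mevalonate to the last steps. Of the early enzymes, mevalonate kinase Mvk rose by 1.60, Pmvk by 1.52, Mvd by 1.89 and farnesyl diphosphate synthase Fdps by 1.62. In the squalene steps Fdft1 rose by 1.54, Sqle by 1.34 and lanosterol synthase Lss by 2.22. Of the late steps, Cyp51 rose by 1.64, Tm7sf2 by 2.55, Msmo1 by 1.26, Nsdhl by 1.22, Ebp by 1.53 and Sc5d by 1.35. The strongest member, Hsd17b7, works both as a 3-ketosteroid reductase of this pathway and as an enzyme that reduces estrone to estradiol. It was at 8.47, 8.47 and 7.86 in control PoF and at 10.92, 11.12 and 11.10 in RU UF, a rise of 2.78 ± 0.27 (6.88-fold, adjusted p = 8.48e-06), and its other probe set gave 2.81. The RU UF samples lay close to each other and well above all controls. The sterol sensor partner Insig1 rose by 1.44, the transcription factors Srebf2 and Srebf1 by 0.90 and 0.53, Acat2 by 0.79 and the carrier Stard4 by 2.14. Members that did not pass were the efflux pumps Abca1 (-1.16) and Abcg1 (-0.85), Insig2 (-0.52), the lipoprotein receptor Scarb1 (0.28), Npc2 (0.55), Idi1 (0.64) and Dhcr7 (0.84). Counts with 1 array left out ran from 17 to 19 higher, with 1 lower without RU UF 1.

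Genes of steroid synthesis differed step by step. Of 14 measured members of that list 5 were higher and 0 lower in RU UF against control PoF (4.53% and 5.45% of all genes). With any array left out 4 or 5 were higher. The list median of 0.48 turned to -0.03 with the signals as deposited. Star, which moves cholesterol to the inner mitochondrial membrane, was at 11, 11.26 and 11.29 in control PoF and at 12.87, 13.35 and 13.18 in RU UF. It rose by 1.95 ± 0.14 (3.86-fold, adjusted p = 5.88e-07) with no overlap, and by 2.06 on its other probe set. Fdx1, the electron donor of the side chain cleavage enzyme, rose by 0.44. That enzyme itself, Cyp11a1, was at 13.11 to 13.35 in control PoF and 13.11 to 13.38 in RU UF, and the groups lay over each other (0.05 ± 0.09, adjusted p = 0.822). The 3 beta-hydroxysteroid dehydrogenase Hsd3b1 (0.11) and the progesterone catabolic enzyme Akr1c3, the current name of the probe set of Akr1c18 (0.52 ± 0.34, adjusted p = 0.42), did not pass.

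Of the enzymes of androgen and estrogen synthesis, Cyp19a1 and Cyp17a1 rose and Hsd17b1 (1.13) did not pass. Cyp19a1, aromatase, was at 3.80, 3.82 and 4.02 in control PoF and at 7.72, 7.39 and 6.80 in RU UF. Every RU UF sample was above every control, a condition for the genes of the largest rises. The rise of Cyp19a1 was 3.42 ± 0.49 (10.7-fold, adjusted p = 0.000244), and its other probe sets gave 2.60 and 4.54. Cyp17a1, which makes androgen in the theca, was at 1.93, 1.95 and 3.36 in control PoF, where 1 of 3 arrays was above background, and at 5.25, 4.52 and 4.48 in RU UF. It rose by 2.34 ± 0.59 (adjusted p = 0.0192), a call lost without control PoF 1 (2.09), control PoF 2 (2.11) or RU UF 1 (2.08) and with a pseudocount of 16 (1.09). Hsd11b1, which regenerates active glucocorticoid, stood at 10.36 to 10.74 and at 11.53 to 11.60, a rise of 1.06 ± 0.21 (adjusted p = 0.00346). Its counterpart Hsd11b2 (1.67), which inactivates glucocorticoid, did not pass.

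Some genes of a luteal list, hormone receptors among them, were higher in RU UF. Cyp11a1, Hsd3b1 and Scarb1 of that list did not pass. Of 16 measured luteal genes 7 rose and 2 fell in RU UF against control PoF, against 4.53% and 5.45% of all genes. With 1 array left out 4 to 6 were higher (4 without RU UF 2 and without RU UF 3). The list median of 0.69 was 0.02 with the signals as deposited. Lhcgr, the LH receptor, was at 8.72, 8.51 and 9.96 in control PoF and at 11.83, 11.49 and 11.53 in RU UF, so the lowest treated sample lay above the highest control. It rose by 2.55 ± 0.64 (adjusted p = 0.0186). The call was lost without control PoF 1 (2.38), control PoF 2 (2.28), RU UF 1 (2.45), RU UF 2 (2.62) or RU UF 3 (2.60), although its other probe set also rose, by 1.57. Wnt4, a ligand active in luteinising granulosa cells, rose by 2.06 ± 0.48, and Sfrp4, a secreted Wnt antagonist with 1 of 3 control arrays above background, by 2.09. Parm1 rose by 1.46. The prolactin receptor Prlr rose by 0.97 ± 0.15 (adjusted p = 0.000489) on its brightest probe set, while its other probe sets gave -0.22 and 0.10 and did not pass. Star and Cyp19a1 are members too, and the members that fell, Timp1 and Vegfa, are described below. Aromatase falls as a follicle turns into a corpus luteum, so a higher Cyp19a1 is not a luteal trait. Of 9 measured theca markers Aldh1a1 (2.60), Lhcgr and Cyp17a1 rose and Tcf21 (-1.06) and Nr2f2 (-0.49) fell; of 12 granulosa markers Cyp19a1 and Inha rose and Cdh2 (-0.46) fell. The fall of Cdh2 was lost with any 1 of the 6 arrays left out (-0.52 to -0.35), and that of Nr2f2 without control PoF 1 (-0.46), control PoF 3 (-0.44), RU UF 2 (-0.47) or RU UF 3 (-0.46).

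**Figure D3:**
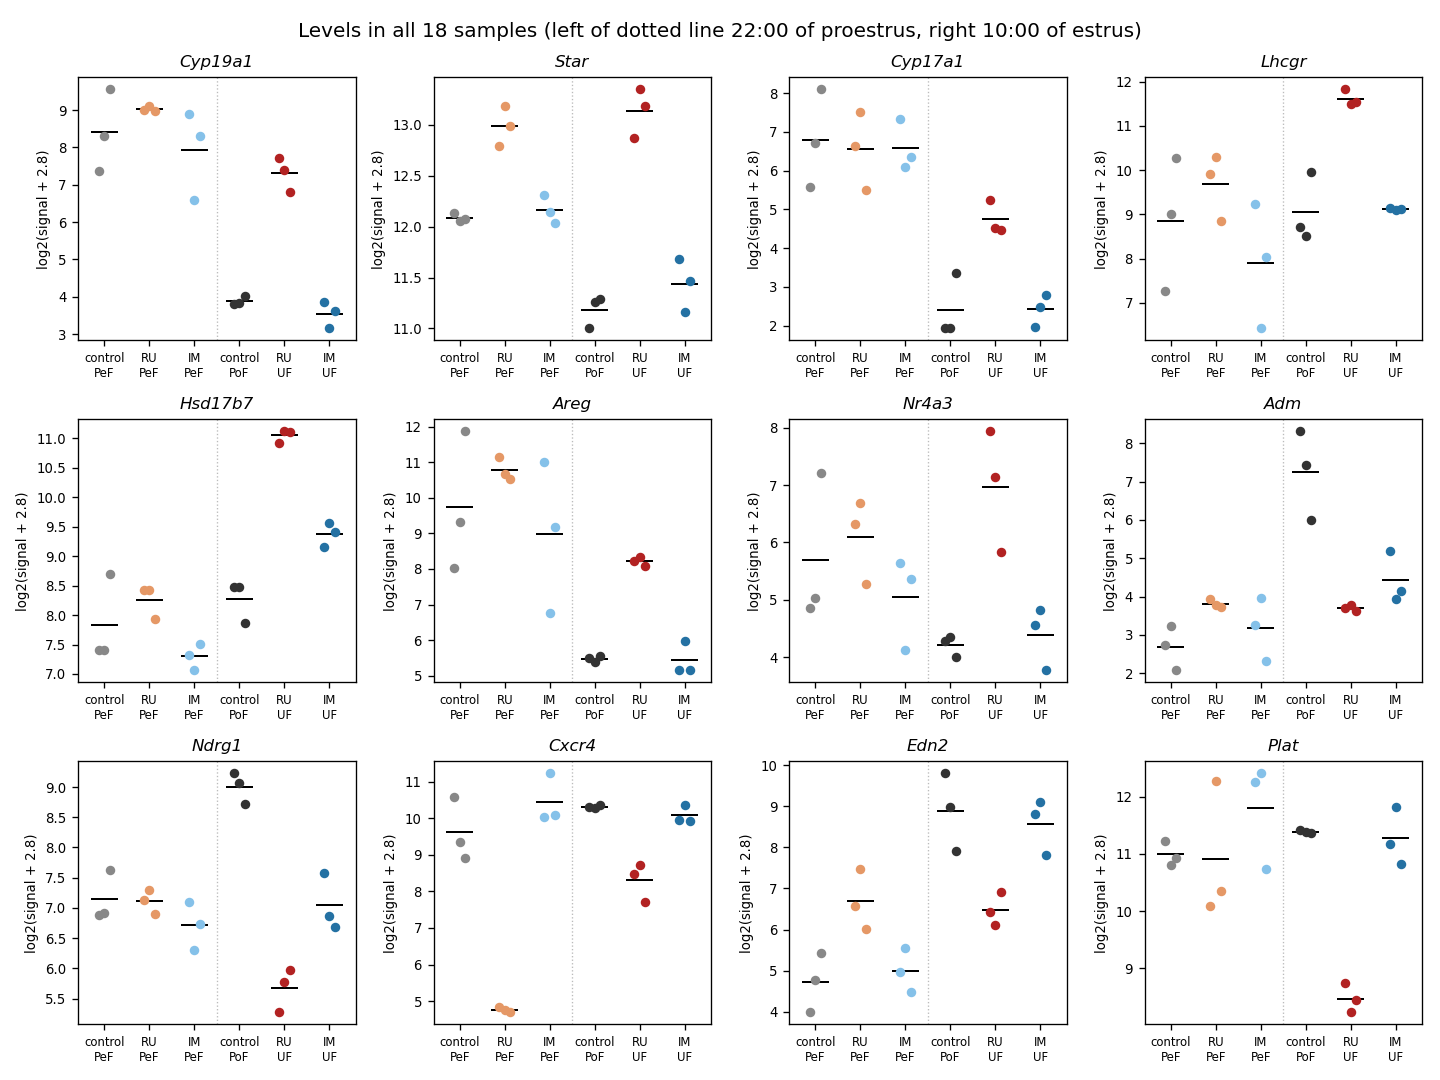
Level of 12 genes as log2(signal + 2.8) in all 18 samples, with 1 point per sample and a bar at each group mean; groups left of the dotted line were collected at 22:00 of proestrus and those right of it at 10:00 of estrus. Cyp19a1, Star, Cyp17a1, Lhcgr, Hsd17b7, Areg and Nr4a3 were higher in RU UF than in all control PoF and IM UF samples, Ndrg1, Cxcr4, Edn2 and Plat lower, and Adm was low in RU UF and IM UF alike.

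Among 23 measured regulators that LH induces, 5 were higher and 3 lower in RU UF against control PoF (4.53% and 5.45% of all genes). The median of 0.17 turned to -0.54 with the signals as deposited. With 1 array left out, 2 to 4 were higher (2 without RU UF 3, 3 without control PoF 2 and without RU UF 2) and 1 to 3 lower (1 without control PoF 1 and without RU UF 1). The orphan nuclear receptor Nr4a3 was at 4.29, 4.35 and 4.01 in control PoF and at 7.94, 7.14 and 5.84 in RU UF. All RU UF samples were higher, although they spread widely, and the rise was 2.75 ± 0.60 (adjusted p = 0.00734). Areg, the epidermal growth factor-like peptide through which LH acts on the cumulus, was at 5.50, 5.38 and 5.56 against 8.22, 8.33 and 8.08. The groups were each tight and far apart, although the standard error draws on all groups, and the rise of 2.73 ± 0.81 had an adjusted p of 0.044. That call was lost with any of the 6 arrays left out, at 2.67 to 2.80. Its relative Ereg did not pass (0.20 ± 0.91, adjusted p = 0.945). The phosphodiesterase Pde4d rose by 1.16, the phosphatase Dusp6 by 1.44 (lost without RU UF 3, at 1.31) and the inhibin alpha subunit Inha by 0.68, a call lost without control PoF 1 (0.59), control PoF 2 (0.61), RU UF 2 (0.70) or RU UF 3 (0.54). Tnfaip3, which restrains NF-kappaB, fell by 1.72, Cebpd by 1.09 and Runx1 by 0.97. Of 4 regulators higher in RU UF that had a promoter sequence, Areg alone held the full cyclic AMP response element, TGACGTCA, within 250 bases before its start; it occurs in 3.09% of 8707 measured genes with a promoter. Promoter sequences here are from RefSeq (build GRCr8) and were searched on both strands. The stretch around it, at chr14:17265695-17265762 on the minus strand, is shown because Areg was the member with this element, which is in capitals.
Areg: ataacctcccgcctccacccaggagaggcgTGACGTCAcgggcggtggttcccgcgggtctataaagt

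Of the 24 gene lists, that of the response to low oxygen had the most genes lower by count. Coagulation control, a shorter list given below, had 6 of 12 lower. Of the 26 measured hypoxia genes 0 were higher and 13 lower in RU UF against control PoF, against 4.53% and 5.45% of all genes. The list median was -0.78. With 1 array left out 10 (without control PoF 1) to 13 fell; with scaling to the array medians 11 fell, and 5 did with the signals as deposited. The sensors and factors came first: Egln3, a prolyl hydroxylase that marks hypoxia-inducible factors for decay, was at 6.81, 6.52 and 5.12 in control PoF and not well above background in RU UF, at least 7.17-fold lower (adjusted p = 0.000103). Epas1, the hypoxia-inducible factor 2 alpha subunit, was at 10.94, 11.08 and 10.87 against 8.37, 8.72 and 9.19. It fell in all RU UF samples, by 2.20 (SE 0.32, adjusted p = 0.000296). The Hif1a transcript was at 12.18 to 12.29 in control PoF and 12.26 to 12.56 in RU UF, with overlap (0.21 ± 0.10, adjusted p = 0.239).

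The target genes that fell did so over a wide range, while the others of the list lay on both sides of 0. Adm, the vasodilator peptide adrenomedullin, was at 8.32, 7.44 and 5.99 in control PoF and at 3.70, 3.79 and 3.63 in RU UF. The controls spread widely, all above the treated samples, and Adm fell by 3.55 (SE 0.53, 11.7-fold, adjusted p = 0.00035). Ndrg1, a stress-responsive protein, was at 9.23, 9.07 and 8.72 against 5.27, 5.78 and 5.97, a fall of 3.33 (SE 0.27, 10.0-fold, adjusted p = 1.32e-06). Heme oxygenase Hmox1 fell by 1.81 (SE 0.22, adjusted p = 5.65e-05), the mitophagy protein Bnip3 by 1.53 and the repressor Bhlhe40 by 1.89. The collagen-modifying enzymes Lox, Plod2, P4ha1 and P4ha2 fell by 1.38, 1.00, 0.80 and 0.86, and the oxidase Ero1a by 0.87. Vegfa, the endothelial growth factor, was at 10.90, 10.61 and 10.10 in control PoF and at 9.78, 9.61 and 9.64 in RU UF. It was lower in every treated sample, by 0.86 (SE 0.19, adjusted p = 0.0096), a call lost without control PoF 1 (-0.68) and with scaling to the array medians (-0.97); its other probe set fell by 1.73. The 13 members that did not pass were Car9 (-0.77), Ankrd37 (-0.65), Mxi1 (-0.57), Egln1 (-0.49), Vhl (-0.11), Kdm3a (-0.08), Higd1a (0.07), Ddit4 (0.15), Angptl4 (0.16), Hif1a (0.21), Plin2 (0.24), Tfrc (0.29) and Bnip3l (0.29). Beside these values stand the Gapdh 3' to 5' difference, higher in RU UF, and the endothelial marker sum, lower in RU UF; with the Gapdh difference as a covariate 11 of the 26 genes fell.

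In glycolysis and glycogen metabolism 1 of 25 measured genes was higher and 8 were lower (median -0.51; 6 to 8 lower with 1 array left out, 5 with scaling to the array medians and 1 as deposited). The glucose transporter Slc2a3 was at 7.26, 5.68 and 5.89 in control PoF and at 4.39, 3.76 and 3.84 in RU UF. The samples did not overlap, and it fell by 2.28 (SE 0.32, adjusted p = 0.000211). Enzymes that fell were Eno2 (-1.59), Pfkp (-1.36), Pgk1 (-0.83), the glycogen brancher Gbe1 (-0.82), Pfkfb3 (-0.79), Ldha (-0.75) and Ldhb (-0.71), whereas Pfkfb4 rose by 1.15. Among 26 measured genes of oxidative phosphorylation 1 fell, Sdhb (-0.93), and 0 rose, with a median of -0.11, no more than the 5.45% and 4.53% of all genes.

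The core of the hypoxia response element, ACGTG, stood within 250 bases before the start of 4 of the 9 hypoxia genes that fell and had a promoter sequence (44.4%) and of 12 of all 21 measured hypoxia genes with one (57.1%). For glycolysis the counts were 4 of 6 that fell (66.7%) and 10 of 23 measured (43.5%). Lists of other function held it too: 8 of 17 measured glucocorticoid genes with a promoter sequence (47.1%), among them all 3 that fell and had one, and 6 of 14 clock genes (42.9%). It occurs in 22.9% of the 8707 promoters, in 26.7% of those of all genes that were lower and in 19.8% of those of all genes that were higher. These shares were not tested against each other. A match is a description of letters only, and CACGTG, which reads the same on both strands, counts as 2 overlapping matches. Stretches of 4 genes that fell are shown with each match in capitals, each running 5′ to 3′ towards the gene: Bnip3 at chr1:203155026-203155090 (minus strand), P4ha2 at chr10:38743823-38743887 (plus), Ldha at chr1:106507989-106508053 (plus) and Pfkfb3 at chr17:71944862-71944926 (plus).
Bnip3: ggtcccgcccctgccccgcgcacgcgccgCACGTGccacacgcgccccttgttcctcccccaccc
P4ha2: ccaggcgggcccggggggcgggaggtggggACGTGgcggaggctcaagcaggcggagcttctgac
Ldha: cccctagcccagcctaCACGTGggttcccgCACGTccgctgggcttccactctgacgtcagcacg
Pfkfb3: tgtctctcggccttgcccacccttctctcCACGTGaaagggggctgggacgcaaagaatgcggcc
Other elements were rare or missing in these windows. The sterol response element as TCACNCCAC was found in 0 of 15 cholesterol genes that rose and in 0.988% of all promoters. The glucocorticoid and progesterone response element in its shorter form was found in 17 of all promoters (0.195%), and the full palindrome in 0.

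Reported targets of the progesterone receptor in the follicle fell in part. Of 17 measured members 1 was higher and 4 lower, against 4.53% and 5.45% of all genes (median -0.35). The receptor Pgr itself was not well above background in control PoF and did not pass (0.89 ± 0.74, adjusted p = 0.56). Edn2, endothelin 2, which contracts the smooth muscle of the follicle wall, was at 9.81, 8.98 and 7.91 in control PoF and at 6.42, 6.10 and 6.91 in RU UF. It fell by 2.43 (SE 0.49, adjusted p = 0.00387), and the lowest control lay above the highest treated sample. Adamts1, a protease that cleaves versican, was at 11.83, 11.37 and 11.85 against 10.47, 9.99 and 10.00. All treated samples were lower, by 1.53 (SE 0.27, adjusted p = 0.00147). Cxcr4, the receptor of the chemokine Cxcl12, was at 10.30, 10.27 and 10.35 against 8.48, 8.71 and 7.71, without overlap, and fell by 2.01 (SE 0.35, adjusted p = 0.00135); its other probe sets gave -2.15 and -2.03. Epas1, given above, was the other member that fell, and Areg the member that rose.

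Among 19 measured genes of the glucocorticoid receptor and its targets 2 were higher and 4 lower, against 4.53% and 5.45% of all genes. Their median was -0.17, and 0.14 without RU UF 1. The phosphatase Dusp1 was at 10.27, 9.75 and 9.62 in control PoF and at 7.50, 7.48 and 8.16 in RU UF. The treated samples were all lower, by 2.17 (SE 0.28, adjusted p = 9.26e-05). Errfi1, an inhibitor of the epidermal growth factor receptor, fell by 2.10, Gadd45b by 1.88 and Cebpd by 1.09, while Per1 rose by 0.92 and Hsd11b1 by 1.06. The receptor Nr3c1 (0.25 ± 0.22, adjusted p = 0.58) and the classical target Fkbp5 (0.07, adjusted p = 0.899) did not pass. The other probe set of Nr3c1 stood at -1.04.

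Clock genes differed in both directions. Of 16 measured members 7 were higher and 4 lower in RU UF against control PoF (4.53% and 5.45% of all genes). The median of 0.32 turned to -0.26 with the signals as deposited, where 0 were higher and 1 lower. With scaling to the array medians 4 were higher and 4 lower. Leaving out 1 array gave 5 or 6 higher and 2 (without control PoF 1) or 3 lower. The genes that rose belong to the Per and Cry repressors, Nr1d2 and output factors. Cry2 was at 5.18, 5.46 and 5.80 in control PoF and at 7.58, 8.26 and 7.50 in RU UF. Every treated sample was higher, by 2.30 (adjusted p = 8.08e-05). Dbp, an output transcription factor, was at 3.83, 4.13 and 4.34 against 6.34, 6.23 and 5.88, a rise of 2.05 without overlap (adjusted p = 0.00114). Per3 was not well above background in control PoF and at 4.92, 4.74 and 4.65 in RU UF, at least 3.01-fold higher. Nr1d2, Tef and Per2 rose by 1.46, 1.25 and 1.15. The genes that fell were Bmal1 (-1.29) and Npas2 (-1.33) of the activator arm, Nfil3 (-1.29), which opposes Dbp, and Bhlhe40 (-1.89), itself a repressor of the clock, so repressors were found on both sides.

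Among 22 measured matrix proteases and their inhibitors 1 was higher and 6 lower in RU UF against control PoF (4.53% and 5.45% of all genes). The median was -0.29, and with any of the 6 arrays left out 3 or 4 were lower. Plat, tissue plasminogen activator, which turns plasminogen into plasmin, was at 11.41, 11.38 and 11.37 in control PoF and at 8.74, 8.23 and 8.44 in RU UF. Both groups were tight and nowhere near each other, and the fall was 2.91 (SE 0.45, 7.53-fold, adjusted p = 0.000435). With it and Adamts1, the inhibitor Serpine2 fell by 1.24, Timp1 by 0.97, Mmp2 by 0.93 and Timp2 by 0.79. Mmp23 rose by 1.19 on its brightest probe set, and its other probe sets gave 1.35 and -0.02 and did not pass. In coagulation control 0 of 12 measured genes were higher and 6 lower, against the same shares of all genes. The median was -0.77, and 4 or 5 were lower with 1 array left out. Besides Plat and Serpine2 these were tissue factor F3 (-1.78), the plasminogen receptor pair Anxa2 (-0.99) and S100a10 (-0.84), and the thrombin receptor F2r (-0.70). F3 stood at 6.71, 6.51 and 5.82 in control PoF and at 4.77, 4.19 and 4.75 in RU UF, with all treated samples lower.

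Several collagens fell. Of 20 measured, 0 were higher and 6 lower (median -0.53; 4 to 6 with 1 array left out, and 0 as deposited). They were the basement membrane chains Col4a1 (-1.11) and Col4a2 (-0.86, lost without RU UF 2 at -0.71), and Col12a1 (-1.17), Col5a2 (-0.97), Col6a3 (-0.84) and Col11a1 (-0.74). Of 30 structural glycoproteins 1 was higher and 4 lower (2 lower without control PoF 1 and without RU UF 2). Lox (-1.38), Tnc (-1.34, lost without control PoF 1 at -1.14 and RU UF 2 at -1.20), Mgp (-0.88) and Fn1 (-0.67) fell. Lamb2 rose by 0.79, a call lost without control PoF 1 (0.67), control PoF 2 (0.78), RU UF 1 (0.72) or RU UF 2 (0.77). In the hyaluronan matrix of the cumulus 2 of 11 were higher and 1 lower. Versican, Vcan, was at 10.32, 10.35 and 9.82 in control PoF and at 11.64, 11.62 and 11.76 in RU UF, a rise of 1.51 ± 0.16 without overlap (adjusted p = 1.68e-05). The link protein Hapln3 rose by 1.83 (lost without RU UF 2 at 1.57) and the hyaluronan receptor Hmmr fell by 1.23 (lost without control PoF 1 at -1.15 and RU UF 1 at -0.95). Has2 (-0.11 ± 0.50, adjusted p = 0.944) and Tnfaip6 (0.18 ± 0.53, adjusted p = 0.904), which make and cross-link that matrix, did not pass.

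Angiogenic, inflammatory and interferon genes gave fewer calls. Of 20 angiogenic factors 2 were higher and 4 lower (1 to 3 lower with 1 array left out): the vessel-destabilising ligand Angpt2 fell by 1.49, Nrp1 by 0.65, Fgf1 by 1.05 and Vegfa as above, while Vegfb rose by 0.88 and Ephb4 by 0.81. The calls of Fgf1 and Ephb4 were lost with any array but RU UF 1 left out (-0.91 to -1.11 and 0.71 to 0.83). Beside these, 0 of 13 endothelial markers were higher and 1, Eng, was lower. The endothelial median was -0.62, against -0.39 for the angiogenic factors. Of 16 cytokines and chemokines 1 was higher and 3 lower (1 or 2 with 1 array left out). These were Cxcr4, Ccl2 (-1.43, lost without control PoF 1 or 3 or RU UF 2 or 3, at -1.17 to -1.33) and Il1r1 (-1.16, lost with any array but control PoF 1 left out, at -1.05 to -1.20). Il4r rose by 1.25 (lost without control PoF 1 at 1.07 and RU UF 2 at 1.14), and Il6, not well above background in RU UF, did not pass (adjusted p = 0.74). Of 12 leukocyte markers Fcgr2b alone was lower, at least 2.78-fold, and of 14 smooth muscle markers Mcam alone. Of 5 surface epithelium markers Krt18 (at least 2.29-fold) and Krt8 (-1.22) were lower. Of the oocyte markers 0 of 3 passed, and of the erythrocyte markers 0 of 2. The medians were -0.40 for leukocytes, -0.63 for smooth muscle, -0.52 for surface epithelium, 0.08 for the oocyte and -0.62 for erythrocytes. Of 17 interferon response genes 3 were higher and 1 lower in RU UF against control PoF, also with any array left out; the median of 0.33 turned to -0.17 as deposited. Usp18 (2.20), Ifi27 (1.60) and Irf9 (1.21) rose and Ifitm3 fell by 1.05.

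Of 13 measured genes of the prostaglandin system, which includes the cyclooxygenases that indomethacin inhibits, 1 was higher and 2 lower. Prostacyclin synthase Ptgis was at 5.10, 4.43 and 4.46 in control PoF and not well above background in RU UF, at least 2.56-fold lower (adjusted p = 0.0125), a call lost without control PoF 1 or RU UF 3 (fitted -2.15 and -2.17). Hpgd, which inactivates prostaglandins, fell by 1.58 (SE 0.31, adjusted p = 0.00315). The exporter Abcc4 rose by 1.11, a call lost with any array left out (1.06 to 1.15). Ptgs2, the inducible cyclooxygenase, was low in both groups and did not pass (-0.38 ± 0.83, adjusted p = 0.862).

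Stress and growth genes moved both ways. List counts here and above, those of 1 to 3 calls in a direction most of all, are to be read against 4.53% of all genes higher and 5.45% lower. Of 25 genes of endoplasmic reticulum stress 1 was higher and 7 lower (median -0.22; 3 to 5 lower with any array left out and 3 with scaling to the array medians). Asparagine synthetase Asns fell by 1.90, Ppp1r15a by 1.14, Herpud1 by 0.90, Ero1a by 0.87, Sdf2l1 by 0.83 and the chaperones Hspa5 and Hsp90b1 by 0.54 and 0.45, while Dnajc3 rose by 0.53 (lost without control PoF 1 at 0.49, control PoF 3 at 0.50 and RU UF 3 at 0.45). Of 23 immediate early genes 2 were higher and 5 lower (median -0.19; with 1 array left out 2 lower, or 4 without RU UF 1). The matrix-associated growth regulator Ccn2 was at 10.92, 10.69 and 11.04 in control PoF and at 8.34, 8.95 and 8.88 in RU UF, all lower, by 2.16 (SE 0.28, adjusted p = 9.89e-05). Fos fell by 1.44, Atf3 by 1.36, Klf4 by 0.86 and Klf2 by 1.16, with 0.15 on the other Klf2 probe set, and Jund rose by 0.47 with -1.25 on its other probe set. Of 32 cell cycle genes 1 was higher and 3 lower, with a median of -0.55; against 4.53% higher and 5.45% lower among all genes, these counts are near the background. Cdk1 (-1.02), Ccnb1 (-0.73) and Ccne2 (-0.94, with 0.21 on another probe set) fell. The inhibitor Cdkn1c rose by 1.36; its call and that of Ccne2 were each lost with 5 of the 6 arrays left out in turn. Of 24 genes of glutathione and oxidative stress defence 4 were higher and 4 lower (1 and 1 with scaling to the array medians): Gstm1 (1.31), Gsta4 (0.95), Sod1 (0.65) and Nfe2l2 (0.44) rose and Hmox1, Prdx6 (-0.74), Gpx3 (-0.72) and Prdx2 (-0.36) fell. Of 26 genes of the inhibin, activin and bone morphogenetic protein system 3 were higher and 1 lower (1 higher without control PoF 2). Id4 rose by 1.86 ± 0.22, the anti-Müllerian hormone receptor Amhr2 by 1.71 (lost without control PoF 2 at 1.69, control PoF 3 at 1.64 and RU UF 1 at 1.33) and Inha by 0.68, while Fstl3, an activin-binding protein, fell by 1.50.

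**Figure D4:**
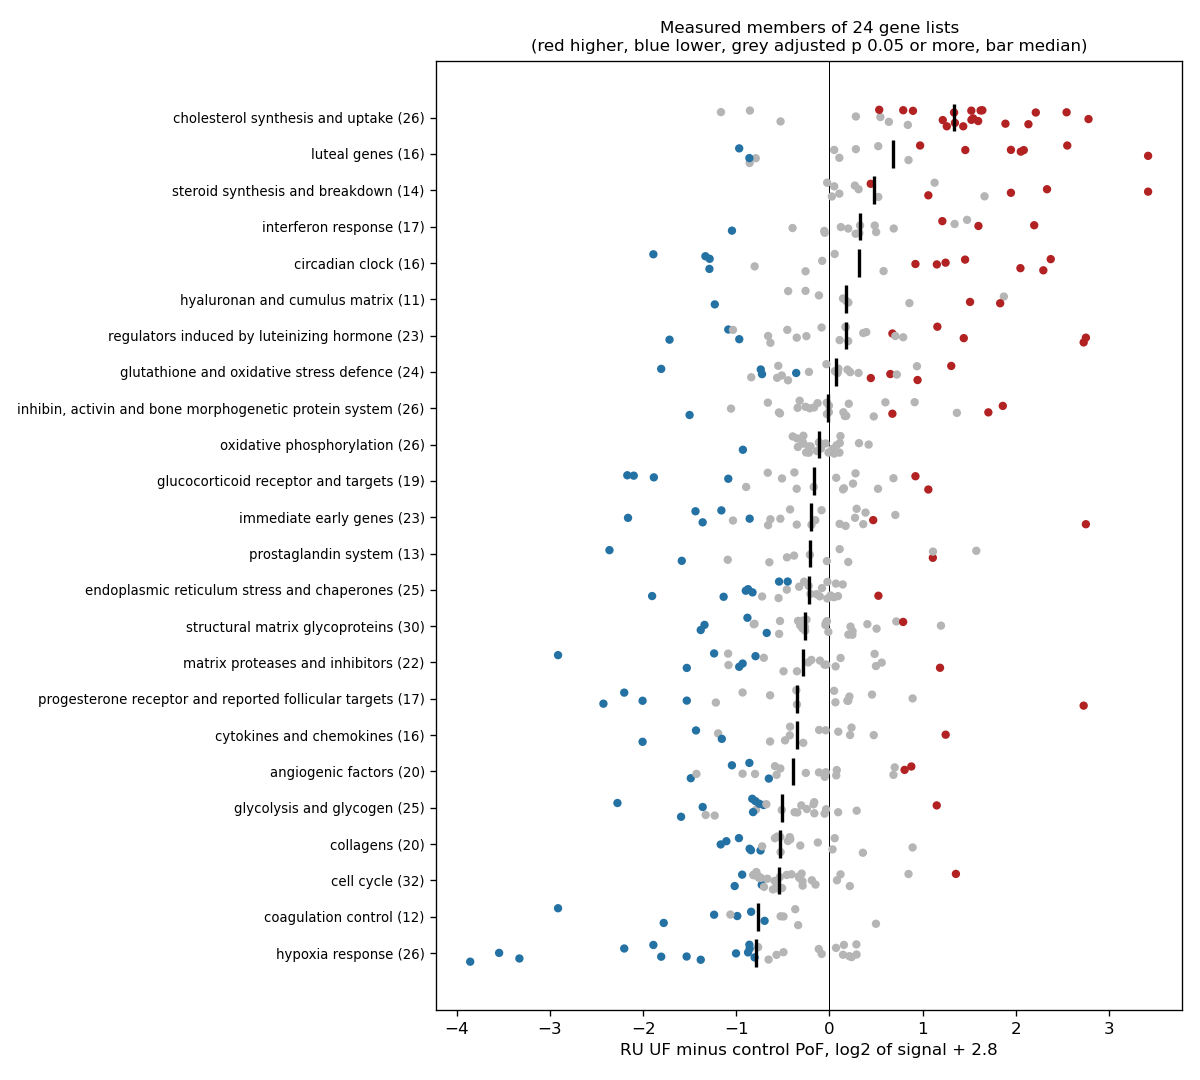
RU UF minus control PoF, in log2 of signal + 2.8, for the measured members of 24 gene lists, with the number measured in brackets and the lists ordered by median (black bar). Red and blue points passed an adjusted p of 0.05 as higher or lower, and grey points did not; cholesterol synthesis lies at the top with 19 red points of 26 and the hypoxia response at the bottom with 13 blue points of 26. With the signals as deposited the medians of the steroid, LH, hyaluronan, interferon and clock lists turn below 0.

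Indomethacin also left follicles unruptured, and RU UF was set against IM UF, collected at the same time. The drugs differed in target, dose and hour given, so the share of the unruptured state cannot be told from this. Both this comparison and that with control PoF use the RU UF samples. IM UF 2 was dim, with a median deposited signal of 7.68 against 23.8 and 19.6 in IM UF 1 and 3. Its Gapdh 3' to 5' difference was 3.86, against 2.19 and 2.62. Of 10381 genes 362 were higher (3.49%) and 455 lower (4.38%) in RU UF against IM UF, from 1261 probe sets; with 1 array left out that count was 660 (without RU UF 2) to 920, and it was 557 with scaling to the array medians. Several genes of steroid synthesis and several of the largest falls passed here too. Cyp19a1 was at 3.87, 3.15 and 3.61 in IM UF, low as in control PoF, and 3.76 ± 0.49 higher in RU UF (adjusted p = 0.000172). Star was at 11.68, 11.16 and 11.47 in IM UF and 1.70 ± 0.14 higher in RU UF (adjusted p = 3.46e-06). Lhcgr (2.49), Sema3d (3.60), Nfe2 (3.38), G0s2 (3.30), Hapln3 (3.06) and Dhh (3.04) were higher too, each with an adjusted p under 0.05. In IM UF, Sema3d and Hapln3 were above background on 1 of 3 arrays and Cyp19a1 on 2 of 3. Mt3 was at 9.68, 9.99 and 10.13 in IM UF, as in control PoF, and RU UF lay below all of them, with a difference of -4.67 (adjusted p = 0.000172). Xlr5c (-6.32), Hopx (-3.70), Cpe (-3.67), Tmem35a (-3.57), Plat (-2.81), Edn2 (-2.10), Cxcr4 (-1.78) and Adamts1 (-1.55) were lower in the same way. Lyve1, at 5.99 to 6.23 in IM UF, was not well above background in RU UF (adjusted p = 0.000272). Of the cholesterol genes 14 of 26 were higher and 0 lower (median 0.78), 7 to 14 with 1 array left out and 4 with scaling to the array medians. Hsd17b7 stood at 9.16, 9.56 and 9.41 in IM UF, between the other groups, and 1.67 ± 0.27 below RU UF.

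The hypoxia genes gave fewer differences. In RU UF against IM UF 1 of 26 was higher, Bnip3l (0.81), and 3 were lower, Epas1 (-2.18), Lox (-1.77) and Ndrg1 (-1.36), with a list median of -0.15. Adm was at 5.20, 3.94 and 4.14 in IM UF, close to RU UF and below all 3 controls, and the drugs did not differ beyond the spread (-0.72 ± 0.53, adjusted p = 0.505). Egln3, at 3.84, 3.17 and 2.46 in IM UF with 1 of 3 arrays above background, was near or below background under both drugs. Its fitted difference (-0.86) is therefore between groups at or near background and does not compare the drugs. Hmox1 (-0.35), Bhlhe40 (-0.24), Vegfa (-0.18) and Bnip3 (-0.12) did not pass either. The 5 genes that passed in IM UF against control PoF, named after their values were seen, were Egln3, Hmox1 (-1.45), Ndrg1 (-1.96) and Ero1a (-1.0), all from the hypoxia list, and Gbe1 (-1.08), and all were lower in IM UF. The IM UF and RU UF comparisons share the control PoF samples. The other lists against IM UF, higher before lower, gave 1 and 4 for glycolysis, 5 and 0 for steroid synthesis, 5 and 1 for luteal genes, 6 and 3 for LH regulators, 2 and 4 for progesterone receptor targets, 2 and 5 for glucocorticoid targets, 6 and 2 for the clock, 0 and 6 for collagens, 0 and 7 for coagulation control and 1 and 4 for proteases. Smooth muscle markers gave 0 and 4, Tagln, Des, Actg2 and Mcam, beside the collagen counts. For glycolysis the list median was 0.07 in RU UF against IM UF. It was -0.57 in IM UF against control PoF, beside -0.51 in RU UF against control PoF.

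RU486 effects at 10:00 of estrus were then set against those at 22:00 of proestrus before rupture. Control PeF 3 was dim, with a median deposited signal of 4.4 against 16.2 and 22.3 in control PeF 1 and 2. Its correlations with them were 0.869 and 0.891, against 0.963 between control PeF 1 and 2. The Gapdh 3' to 5' difference averaged 3.72 in control PeF and 2.78 in RU PeF, the reverse of its order at 10:00. At 22:00, RU PeF against control PeF gave 392 genes higher (3.78%) and 493 lower (4.75%). The effect differed between the times, as a difference of differences, in 236 genes upward (2.27%) and 225 downward (2.17%), from 730 probe sets of which 54.2% were upward. That split was 19.7% with scaling to the array medians and 0% with the signals as deposited, where the median of all probe sets lay at -0.385 and -1.451. With the Gapdh 3' to 5' difference as a covariate 142 probe sets passed, and with 1 array left out 366 (without control PoF 2) to 925 (without control PeF 3).

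Of 14 measured steroid genes 2 were higher and 0 lower in RU PeF against control PeF. In control PeF, Cyp19a1 was at 7.38, 8.31 and 9.56, and in RU PeF at 9.0, 9.11 and 8.98, so the groups overlapped before rupture. The later effect was larger by 2.81. From 22:00 to 10:00 the Cyp19a1 mean went from 8.41 to 3.88 in the controls and from 9.03 to 7.30 under RU486. Star was at 12.13, 12.06 and 12.07 in control PeF and at 12.79, 13.18 and 12.99 in RU PeF, already without overlap, and the later effect was larger by 1.05. At 22:00, 14 of 26 cholesterol genes were already higher and 0 lower (median 0.66), and 5 had a larger effect at 10:00: Hsd17b7 (2.35), Stard4 (1.70), Tm7sf2 (1.68), Mvd (1.51) and Lss (1.41). Adm was at 2.74, 3.23 and 2.07 in control PeF (not well above background) and at 3.93, 3.77 and 3.72 in RU PeF (1.13, adjusted p = 0.208). The RU486 samples lay below the controls at 10:00 but not at 22:00, and the fitted effects differed by -4.67 ± 0.75 (adjusted p = 0.00185). The Adm mean went from 2.68 to 7.25 in the controls and from 3.81 to 3.70 under RU486. Of the hypoxia genes 2 were higher and 2 lower at 22:00, and 6 of 26 differed downward between the times (Adm, Bhlhe40, Egln3, Ndrg1, Hmox1 and Ero1a), or 2 with the Gapdh covariate.

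Progesterone receptor targets took different courses. Cxcr4 was at 10.57, 9.35 and 8.91 in control PeF and at 4.85, 4.75 and 4.69 in RU PeF, a gap of -4.85 (adjusted p = 1.17e-06). The gap was smaller at 10:00, by 2.84. Edn2 was at 3.98, 4.76 and 5.44 in control PeF and higher in RU PeF, at 6.57, 7.47 and 6.01 (1.96, adjusted p = 0.0198), the opposite of its fall at 10:00, and the effects differed by -4.38 ± 0.69 (adjusted p = 0.00152). Xlr5c was already lower at 22:00, by 5.62 on the log2 scale (fitted -5.62, adjusted p = 5.48e-06), and did not differ between the times beyond the spread. Plat gave -0.08 at 22:00, and its effects differed by -2.83 ± 0.64 (adjusted p = 0.0176). Glucocorticoid targets were lower at 22:00 in 10 of 19 and higher in 0 (median -0.78), among them the metallothioneins Mt1 (-2.58) and Mt2A (-2.48), Klf9 (-1.15) and Fkbp5 (-1.11). At 10:00 Mt1 (0.69), Klf9 (0.52) and Fkbp5 (0.07) did not pass, and the differences between the times were 3.27, 1.67 and 1.18; 5 of 19 differed upward and 1 downward, Gadd45b (-3.16), or 1 and 0 with the Gapdh covariate. Clock genes had 1 higher and 2 lower at 22:00, and 5 of 16 differed upward, Per3 (3.09, above background in RU UF alone of the 4 groups), Per2 (2.22), Dbp (2.13), Per1 (1.71) and Nr1d2 (1.54), and Bmal1 (-2.19) and Bhlhe40 downward, or 1 and 0 with the covariate. Collagens were lower in 10 of 20 at 22:00, beside 6 of 14 smooth muscle markers, and 0 of the collagens differed between the times.

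**Figure D5:**
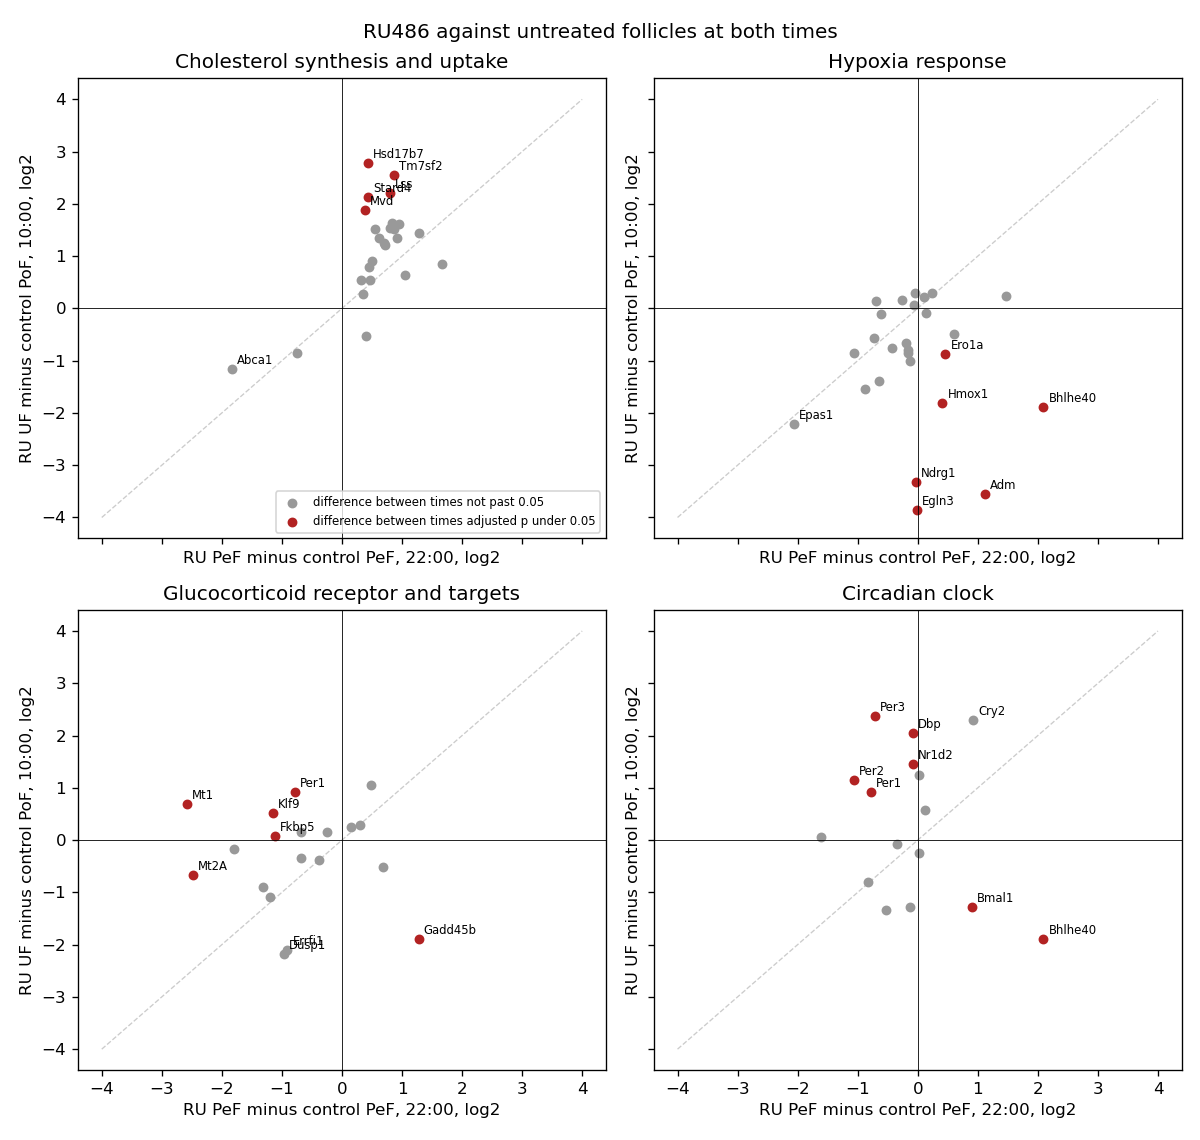
RU486 minus untreated in log2 at 22:00 of proestrus (horizontal, RU PeF minus control PeF) and at 10:00 of estrus (vertical, RU UF minus control PoF) for 4 gene lists, with red points where the effects differed between the times at an adjusted p under 0.05 and a dashed line of equal effects. Cholesterol genes lie mostly above the line, Adm, Egln3 and Ndrg1 far below it, and Mt1, Klf9, Fkbp5 and Per1 to the left of 0.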

How the data were processed

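Total RNA from laser-cut follicles was measured on 18 Affymetrix arrays in 6 groups of 3; samples were grouped by title. The authors deposited 1 linear intensity per probe set and array, made with MAS5 per the submitters' processing notes; its version, scaling and build: not given in the sources used here. Deposited values fall no lower than 1. From 31099 probe sets 57 controls were left out. Intensities were quantile-normalised, a pseudocount of 2.8 (their 20th percentile before scaling) was added and log2 taken, so fold changes of dim genes are understated. Probe sets above their array's median on at least 3 arrays entered the tests (18155), run in limma 3.58.1 (R 4.3.3): all 18 arrays entered with 1 mean per group (12 residual degrees of freedom) and an intensity trend in the variance, and p-values were adjusted by Benjamini-Hochberg within each comparison, called at 0.05. Only 3 arrays per group limit the precision. A probe set was above background on an array when it exceeded the highest of 27 unspiked controls. The platform table gave 1 symbol for 20826 probe sets, several for 436 and none for 9780; 20758 symbols were updated through the gene ID. A gene stands for its probe set of highest mean over all samples (14217 genes, 10381 tested).

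Named genes were the 12 largest rises and falls among called genes whose samples did not overlap, up to 4 genes of smallest adjusted p from each list with 3 calls, and a fixed set of ovulation genes; for the other comparisons, the 6 largest each way, where for the difference between times no condition on overlap was applied. Members, lists and rules were chosen with earlier results of these data known. On simulated data for RU UF against control PoF the fit recovered 38 of 100 probe sets changed 2-fold and 79 of 100 changed 4-fold. It gave 3 false calls among 18155 probe sets. All others were left unchanged between these groups, the noise was normal with equal spread in all groups, and scaling was not simulated. Recovery and false calls may differ in the real data, where 8.69% were called. Alternatives were other scalings, pseudocounts, filters, array weights, the replicate number as a block, the Gapdh or beta-actin 3' to 5' difference as covariates (both chosen after seeing the data) and leaving out each array. Promoters came from RefSeq (8707 of 10381 genes matched). Figures were drawn with matplotlib 3.10.9.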

Additional observations from a re-analysis of the deposited data

Results flagged for a closer look

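For 49 of 121 named probe sets the RU486 effect at 10:00 of estrus differed from that at 22:00 of proestrus. These passed an adjusted p of 0.05 in the limma interaction, 25 upward and 24 downward. Over all measured genes 2.27% differed upward and 2.17% downward. The named probe sets were chosen in part by this difference and in part by the effect at 10:00, which enters it. Their share therefore follows in part from the choice and cannot be read against that of all genes. The values below are log2 effects at 10:00 minus those at 22:00, on 3 samples a group. None was weighed for a cause.

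Among genes of steroid and cholesterol metabolism the difference was 2.81 for Cyp19a1, 1.05 for Star, 2.35 for Hsd17b7, 1.68 for Tm7sf2 and 1.41 for Lss. Receptors and regulators gave 1.84 for Prlr, 1.85 for Dusp6, 1.65 for Id4, 2.69 for Aldh1a1, which makes retinoic acid, and 3.73 for Dhh. Nfe2 gave 2.68 and Sema3d 3.51. Clock genes gave 2.13 for Dbp, 1.54 for Nr1d2 and 1.71 for Per1, and interferon genes 2.91 for Usp18 and 1.61 for Irf9. Vcan gave 1.45, Mmp23 1.61, Cxcr4 2.84 and F3 1.98; the last pair were lower under RU486 at both times and less so at 10:00.

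Downward differences were -4.67 for Adm, -3.84 for Egln3, -3.30 for Ndrg1, -3.98 for Bhlhe40, -2.22 for Hmox1 and -1.33 for Ero1a among hypoxia genes. Glycolysis genes gave -2.30 for Eno2, -2.00 for Pfkp and -0.72 for Gbe1. Edn2 gave -4.38, Plat -2.83, Timp1 -1.82, Hpgd -2.18, Anxa2 -0.94, S100a10 -0.56, Ccn2 -1.64, Cdk1 -1.21 and Ppp1r15a -1.41. Some of the values are fitted with a group at background and are neither exact sizes nor bounds: Egln3 in RU UF and control PeF, Adm in control PeF, Sema3d and Adh1c in RU PeF. Of the largest falls, Adh1c gave -3.01, Cpe -2.26, Hopx -2.03 and Orm1 -1.98.

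The 6 largest differences in each direction brought 6 genes not described above. Upward these were Aard (3.97), Wipf3 (3.72), an actin regulator, Susd3 (3.45) and Fam107a (3.37); downward, Aldh1a3 (-4.14), another retinoic acid enzyme, and Tmem139 (-4.05). Fam107a was not well above background in RU UF and above it on 1 of 3 control PoF arrays, so its effect at 10:00 is between groups at or near background. Aldh1a3 was not well above background in control PeF. Their values are fitted ones. The call of Aard was lost without control PeF 1 or 2, any control PoF array, RU PeF 3 or RU UF 1 or 2 (3.29 to 4.17). That of Susd3 was lost without control PeF 1 or 2, any control PoF array, RU PeF 2 or 3 or any RU UF array (2.74 to 3.81). That of Aldh1a3 was lost without control PeF 1 or 3, any control PoF or RU PeF array or RU UF 2 (-3.02 to -4.27). With the Gapdh 3' to 5' difference as a covariate 9 of these 12 genes no longer passed.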

How the results depend on the processing

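Of 1578 probe sets called in RU UF against control PoF, 1261 in RU UF against IM UF and 730 between the times, the counts moved by more than 1.5 times under these settings, except where stated. With scaling to the array medians they were 793, 557 and 340. With the signals as deposited they were 151, 32 and 82. With array quality weights they were 3686, 2642 and 2446. Fitting only the compared groups gave 3115 for the first, and leaving out the 3 dimmest arrays gave 3109 for the first and 1668 for the difference between the times. The Gapdh 3' to 5' covariate gave 142 and the beta-actin covariate 1411 for that difference, both chosen after seeing the data. With the Gapdh covariate 1289 passed in the first, a move of less than 1.5 times, and 1010 of them were among the 1578. Leaving out 1 replicate gave 858 to 1034, 660 to 920 and 366 to 925, and some counts in the last 2 ranges moved by less than 1.5 times. Of 114 genes named for the first comparison, 17 kept their direction but no longer passed with scaling to the array medians, and 77 with the signals as deposited. The cause of these shifts was not tested.

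Values that changed sign were as follows. As deposited, they were -0.24 for Jund, -0.23 for Dnajc3, -0.30 for Cyp11a1, -0.20 for Akr1c3, -0.51 for Ereg, -0.36 for Tnfaip6, -0.38 for Hif1a and -0.46 for Nr3c1. Ptgs2 was 0.89 with the Gapdh covariate and Has2 0.06 with the beta-actin covariate. With 1 replicate left out Cyp11a1 ran from -0.01 to 0.14, Ereg from -0.08 to 0.60, Has2 from -0.33 to 0.09 and Tnfaip6 from -0.09 to 0.63.

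Samples with the same replicate number did not deviate together (correlations of -0.114 to 0.054), so the numbers were not taken as pairs. With the replicate block 1383, 1117 and 598 probe sets passed, and Areg, Prss35 and Abcc4 no longer did. Depth as such is not defined for arrays; signals near the unspiked controls limit what dim genes can show.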
